A study of Mus musculus with 12 samples.

Results

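The 6 actin genes of the mouse were followed in cultured aortic smooth muscle cells kept in low or high glucose, out of 22180 genes with a probe set of their own on an Affymetrix mouse gene array. They were taken by name: the smooth muscle actins Acta2 and Actg2, the striated muscle actins Acta1 and Actc1, and the cytoplasmic actins Actb and Actg1. All 6 were found in the platform annotation, and where a symbol had several probe sets the brightest over all arrays stood for the gene. Primary cells of C57BL/6J mice, an inbred strain, were used between passages 3 and 4, and the DMEM of both groups held 10% fetal calf serum. One group was kept at 0.3 g/l glucose (1.7 mM) and the other at 4.5 g/l (25 mM), with 6 arrays each. The series text gives 14 days of culture and the sample labels 1 week. No label says whether the replicates were separate cultures or animals, so a p-value here speaks only of the spread among arrays, and that spread may be technical. Cells under an osmotic control were not analysed here.

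Actin monomers assemble into the filaments along which myosin pulls, and they also set cell shape and adhesion. Mammals carry separate genes for nearly identical actin proteins. Acta2 is the main actin of arterial smooth muscle, Actg2 that of gut and bladder smooth muscle, Acta1 that of skeletal muscle and Actc1 that of the heart, while Actb and Actg1 serve all cells. Muscle actin genes, and Actb and Actg1 as well, are known targets of the transcription factor SRF. It binds the CArG box and works with the cofactors myocardin and MRTF, and free actin monomers hold MRTF out of the nucleus.

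The RefSeq promoter table (GRCm38.p6) held a window for 4 of the 6 genes, shown here because the CArG box is the element these genes are known to share. Each window is the 250 bases before a transcript start, on the minus strand. For Acta2 that start lies inside the annotated gene (chr19:34240336-34255585), so most of its window and both of its matches lie within the gene. The CArG box has 10 positions, a pair of C, 6 bases that are A or T, and a pair of G, and its pattern reads the same on both strands. Capitals mark every match, full or with 1 departing base, and no matches overlapped.
Acta2, chr19:34255374-34255623: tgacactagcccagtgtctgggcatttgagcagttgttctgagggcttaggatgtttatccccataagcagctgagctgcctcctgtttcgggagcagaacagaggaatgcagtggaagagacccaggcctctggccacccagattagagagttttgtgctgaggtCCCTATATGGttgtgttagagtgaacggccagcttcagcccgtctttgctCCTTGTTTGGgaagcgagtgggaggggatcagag
Acta1, chr8:123894776-123895025: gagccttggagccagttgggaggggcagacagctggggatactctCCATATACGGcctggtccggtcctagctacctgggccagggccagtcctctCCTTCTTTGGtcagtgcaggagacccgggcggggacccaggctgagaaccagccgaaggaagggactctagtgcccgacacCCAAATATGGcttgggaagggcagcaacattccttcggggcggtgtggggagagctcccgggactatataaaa
Actc1, chr2:114052876-114053125: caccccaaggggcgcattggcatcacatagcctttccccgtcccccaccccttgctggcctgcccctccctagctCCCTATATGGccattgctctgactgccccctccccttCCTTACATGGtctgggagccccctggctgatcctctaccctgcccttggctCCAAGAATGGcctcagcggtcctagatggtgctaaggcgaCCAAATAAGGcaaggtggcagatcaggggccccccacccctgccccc
Actg1, chr11:120348496-120348745: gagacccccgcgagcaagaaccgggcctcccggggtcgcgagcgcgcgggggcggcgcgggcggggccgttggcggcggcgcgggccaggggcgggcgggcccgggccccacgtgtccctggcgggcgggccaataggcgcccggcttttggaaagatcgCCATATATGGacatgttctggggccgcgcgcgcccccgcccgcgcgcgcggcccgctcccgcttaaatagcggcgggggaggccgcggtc
Acta1, Actc1 and Actg1 each held 1 full match, CCAAATATGG, CCAAATAAGG and CCATATATGG, which start 73, 47 and 90 bases before the transcript start. Acta2 held no full match and 2 with 1 departing base, CCCTATATGG and CCTTGTTTGG, starting 84 and 34 bases before it. Acta1 held 2 further matches of that looser kind and Actc1 held 3. Over 32851 such windows of the genome, 1.47% held a full match and 18.6% a full or looser one, and 2.96% held at least 2 of either kind. A match is a description of the letters and not of binding. Actb and Actg2 are named only.

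The arrays differed in ways that bear on every value below. Replicate 4 of the 0.3 g/l group stood apart from the rest of its group, and the results it touches are also given without it. The 4.5 g/l arrays fell into replicates 1 to 3 and 4 to 6, a difference whose source the labels do not give. The mean of 12 smooth muscle markers lay at 8.18 to 8.32 in the 5 other arrays of 0.3 g/l and at 9.28 in replicate 4. It lay at 9.78 to 9.90 in replicates 1 to 3 of 4.5 g/l and at 10.01 to 10.04 in the remaining 3. The part of these markers' shift in the actin values was not tested. Of those 12 markers 10 rose and none fell, where 15.5% of all genes passed. Without replicate 4 of 0.3 g/l, 11 rose and none fell, where 2288 of all 22180 genes rose and 3007 fell. Those that rose included the smooth muscle myosin Myh11 (9.07-fold), Synpo2 (5.70-fold) and Kcnmb1 (5.12-fold). The list shares Lmod1 and Myocd with lists described further on. In RNA of whole cultures, fewer cells of a type and less RNA per cell cannot be told apart. All values are log2 values after RMA normalization, and 12 arrays limit the precision.

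All 6 actin genes were higher in 4.5 g/l glucose, and on none of them did the groups overlap. The skeletal muscle actin Acta1 and the smooth muscle actin Actg2 rose most, 8.72-fold and 8.67-fold. Actg1, Acta2, Actc1 and Actb rose between 1.37-fold and 1.63-fold. Over all genes 15.5% passed a limma adjusted p of 0.05 (Benjamini-Hochberg), 7.01% as higher in 4.5 g/l and 8.52% as lower. The groups did not overlap for 6.40% of genes, and for 3.49% with 4.5 g/l above. The median log2 difference of all genes was -0.01.

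**Figure D1:**
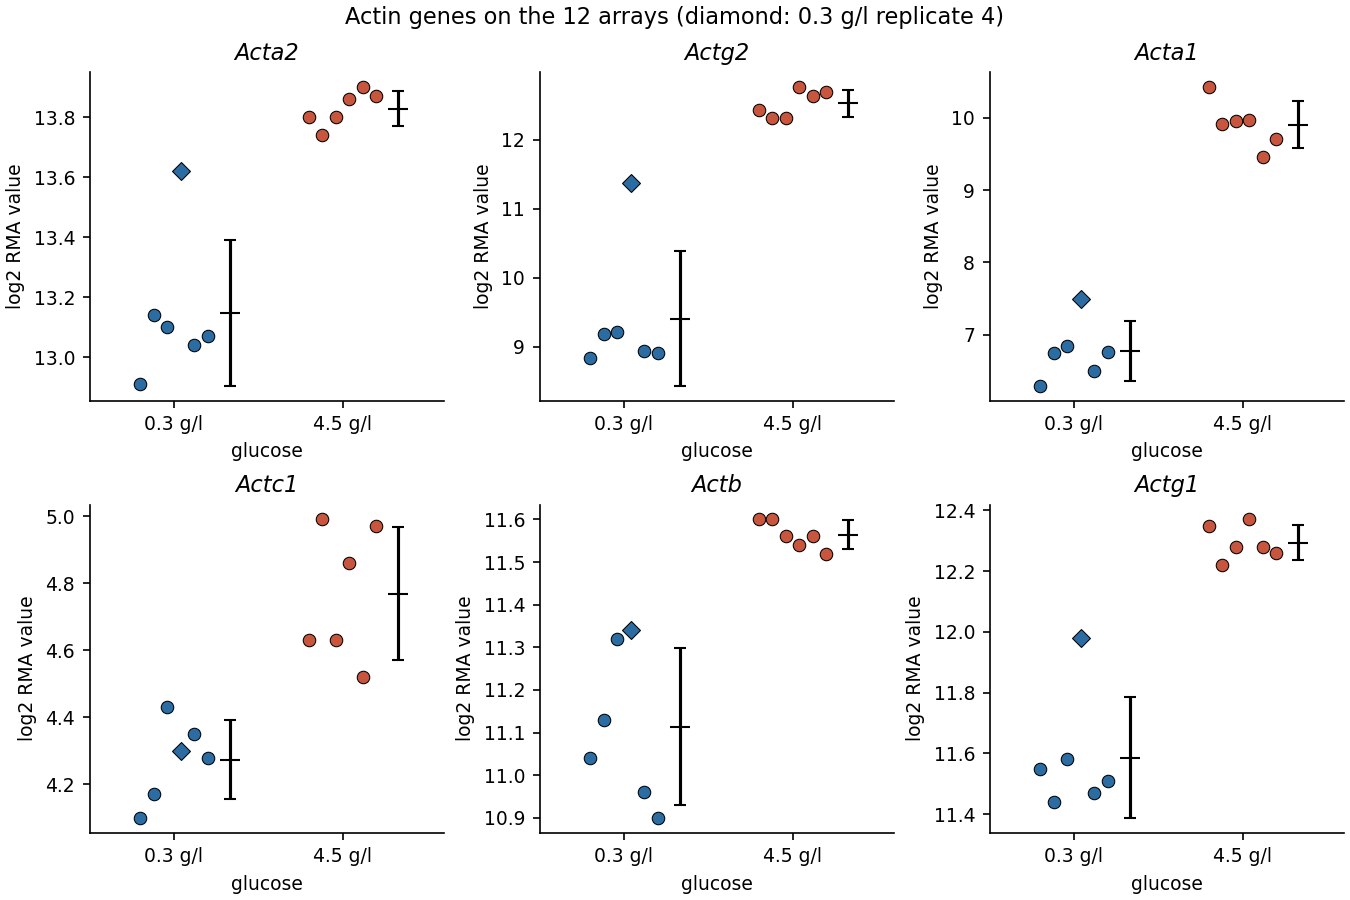
Log2 RMA values (y axis) of the 6 actin genes in 0.3 and 4.5 g/l glucose (x axis), 1 point per array and a diamond for 0.3 g/l replicate 4, with the mean and SD of each group in black. Each panel has its own y range, and in every panel the 4.5 g/l points lie above all 0.3 g/l points.

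Acta2, the defining actin of vascular smooth muscle, was measured at 12.91, 13.14, 13.10, 13.62, 13.04 and 13.07 in 0.3 g/l replicates 1 to 6. In 4.5 g/l it was measured at 13.80, 13.74, 13.80, 13.86, 13.90 and 13.87. Replicate 4 of the 0.3 g/l group was the highest of its group, and every 4.5 g/l array lay above it by at least 0.12. The mean went from 13.15 ± 0.24 to 13.83 ± 0.06 (SD, n = 6), a log2 difference of 0.68 ± 0.10 (SE; probe set 17364098; limma adjusted p = 0.000600). Without 0.3 g/l replicate 4 the difference was 0.77 ± 0.06. These values lie at the top of the array's scale: on each 4.5 g/l array no more than 1 of the 41345 probe sets was higher, and Acta2 lay within 0.04 of the array's maximum. On the 0.3 g/l arrays it lay 0.22 to 0.87 below the maximum. How far this ceiling limits the measured rise was not tested.

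Actg2, the gamma actin of visceral smooth muscle, was measured at 8.84, 9.18, 9.21, 11.37, 8.94 and 8.91 in 0.3 g/l. The 4.5 g/l replicates gave 12.43, 12.32, 12.31, 12.76, 12.63 and 12.69. Replicate 4 of 0.3 g/l lay more than 2 log2 units above the rest of its group, and still 0.94 below the lowest 4.5 g/l array. The log2 difference was 3.12 ± 0.35 (SE; probe set 17468183; limma adjusted p = 0.000122) and a 95% interval of 2.37 to 3.86. Without that array it was 3.51 ± 0.10, an 11.4-fold rise. Ordered by size of rise, Acta1 stood at place 4 and Actg2 at place 5 of the 22180 genes.

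Acta1, the actin of skeletal muscle fibres, was measured at 6.30, 6.75, 6.85, 7.50, 6.50 and 6.77 in 0.3 g/l. In 4.5 g/l it was measured at 10.42, 9.91, 9.95, 9.97, 9.45 and 9.70. The groups were 1.95 apart at their nearest arrays, the widest gap of the 6 genes. Acta1 rose from 6.78 ± 0.41 to 9.90 ± 0.32 (SD, n = 6), a log2 difference of 3.12 ± 0.19 (SE; probe set 17513995; limma adjusted p = 1.57e-06). The rise was 3.27 ± 0.15 without 0.3 g/l replicate 4.

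Few other markers of skeletal muscle passed. Of 15 such genes measured, among them the muscle regulators Myod1 and Myog and the fast myosins, 1 rose and 14 did not pass, where 15.5% of all genes passed. The median difference of the 15 was -0.03, and 6 of them had means below 4.20, the bound of the dimmest 25% of genes. The 1 that rose was Actn3, the alpha-actinin of fast fibres, at 1.30-fold. Of 12 cardiac markers 2 rose and 10 did not pass, or 16.7% beside 15.5% of all genes, a count near the background. Those that rose were the natriuretic peptide genes Nppb (3.98-fold) and Nppa (1.41-fold). Of the 12, 3 rose without 0.3 g/l replicate 4, where 2288 of all 22180 genes rose. Both peptide genes are known to respond to load and stress in heart muscle.

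Actc1, the cardiac actin, was the dimmest of the 6 on these arrays. Its 0.3 g/l values were 4.10, 4.17, 4.43, 4.30, 4.35 and 4.28, and its 4.5 g/l values 4.63, 4.99, 4.63, 4.86, 4.52 and 4.97. The groups lay 0.10 apart at their nearest arrays. The log2 difference was 0.50 ± 0.09 (SE; probe set 17389510; limma adjusted p = 0.00269), a 1.41-fold rise, and 0.3 g/l replicate 4 lay among its own group here. The 0.3 g/l mean of 4.27 ± 0.12 (SD, n = 6) was close to the bound of 4.20 named above, and no detection call was used, so the size of this rise is uncertain. It did not pass a test against a fold of 1.2 (limma adjusted p = 0.272).

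Actb, the cytoplasmic beta actin, was measured at 11.04, 11.13, 11.32, 11.34, 10.96 and 10.90 in 0.3 g/l. It was measured at 11.60, 11.60, 11.56, 11.54, 11.56 and 11.52 in 4.5 g/l. The 0.3 g/l values spread widely, with replicates 3 and 4 highest, and the 4.5 g/l values lay close together. The log2 difference was 0.45 ± 0.08 (SE; probe set 17454753; limma adjusted p = 0.00194), a 1.37-fold rise. It did not pass against a fold of 1.2 (limma adjusted p = 0.343). Actg1, the cytoplasmic gamma actin, was measured at 11.55, 11.44, 11.58, 11.98, 11.47 and 11.51 in 0.3 g/l. Its values in 4.5 g/l were 12.35, 12.22, 12.28, 12.37, 12.28 and 12.26. Replicate 4 of 0.3 g/l again lay between its group and the 4.5 g/l arrays. The log2 difference was 0.71 ± 0.08 (SE; probe set 17331429; limma adjusted p = 0.000193), a 1.63-fold rise, and 0.79 ± 0.05 without that array.

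The symbol Actg1 alone was carried by 6 probe sets, and the other 5 actin genes had 1 each. Probe sets 17331429 and 17500992 held identical values on all 12 arrays and are counted as 1 measurement. Probe set 17288896 rose by 0.80 ± 0.10 (log2 difference ± SE), 17548348 by 0.77 ± 0.12 and 17547608 by 1.08 ± 0.17, each with an adjusted p of at most 0.00295 in limma over all 41345 probe sets and with no overlap of the groups. The dimmest, 17273061, with means of 5.92 and 6.15, differed by 0.22 ± 0.10 and did not pass (limma adjusted p = 0.229). A further probe set shared by Actg1 and Gm12739 differed by -0.08 ± 0.08 (limma adjusted p = 0.632), with means of 5.84 and 5.76. The bright Actg1 probe sets thus all rose and the dim ones did not pass. As the coding sequences of actins are close, their probe sets can share signal. How much they share was not tested.

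**Figure D2:**
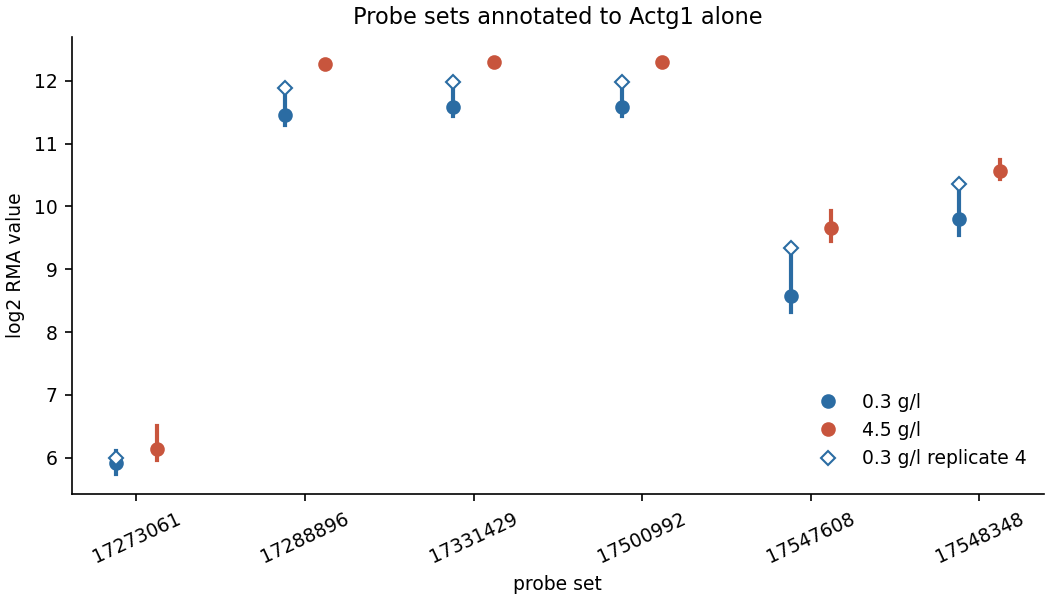
Log2 RMA values (y axis) of the 6 probe sets annotated to Actg1 alone (x axis), with the mean (filled circle) and range (line) of 6 arrays in 0.3 g/l (blue) and 4.5 g/l (red) and an open diamond for 0.3 g/l replicate 4. The groups are apart in 5 probe sets and overlap in the dimmest, 17273061.

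Whether the actin genes rose by different amounts was tested in all 15 pairs, using the within-array difference of their log2 values and a two-sided exact permutation test over 924 assignments, whose smallest possible p is 0.00216. After Benjamini-Hochberg adjustment over the 15 pairs, 10 differed. The rise of Acta2 minus that of Acta1 was -2.44 ± 0.17 (log2 ± SE; exact permutation p = 0.00216, adjusted p = 0.00406), and minus that of Actg2 it was -2.44 ± 0.31 (the same p-values). Acta1 and Actg2 also rose more than Actc1, Actb and Actg1, by 2.41 to 2.67, and in all 8 of these pairs the within-array differences of the groups did not overlap. As Acta2 lay at the array's ceiling in 4.5 g/l, its rise may be understated, and every difference from Acta2 here and in the next paragraph is subject to that limit. The rises of Actg2 and Acta1 differed by -0.01 ± 0.31 (exact permutation p = 0.981), and by 0.24 without 0.3 g/l replicate 4 (exact permutation p = 0.290), which does not show that they rose alike.

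Among the smaller rises, the rise of Actb minus that of Actg1 was -0.26 ± 0.07 (exact permutation p = 0.00433, adjusted p = 0.00722). Acta2 rose more than Actb by 0.23 ± 0.08 (adjusted exact permutation p = 0.0292), but this was lost when any of 0.3 g/l replicates 1, 2, 3 or 5 or 4.5 g/l replicates 4, 5 or 6 was left out (0.18 to 0.24, adjusted exact permutation p = 0.0519 to 0.0584). It was also lost after quantile normalization (0.18, adjusted exact permutation p = 0.0617). The measured rises of Acta2 and Actg1 differed by -0.03 ± 0.06 (exact permutation p = 0.634), which with the ceiling on Acta2 does not show that they rose alike. Actc1 differed from Actg1 by -0.21 ± 0.13 (adjusted exact permutation p = 0.162), and this passed without 0.3 g/l replicate 4 (-0.28, adjusted exact permutation p = 0.0472). The rise of Acta2 minus that of Actc1 was 0.18 ± 0.13 (exact permutation p = 0.195), and that of Actc1 minus that of Actb was 0.04 ± 0.11 (exact permutation p = 0.755).

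Replicate 4 of the 0.3 g/l group was shifted to unequal extents. Measured from the mean of the 5 other 0.3 g/l arrays to the 4.5 g/l mean, it lay 67.1% of the way for Actg2, 59.9% for Actg1 and 54.9% for Actb. For Acta2 it lay 73.0% of the way to a mean near the array's maximum, so that share may be too high. It lay 26.5% of the way for Acta1 and 6.94% for Actc1. Actg2, Actg1 and Actb of this array were thus nearer to the 4.5 g/l level, and the striated actins Acta1 and Actc1 nearer to the 0.3 g/l level. For Actb, replicate 3 of 0.3 g/l (11.32) lay almost as high as replicate 4 (11.34), so that share does not set replicate 4 apart. These percentages describe 1 array and were not tested.

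Among the 4.5 g/l arrays, Actg2 ranged from 12.31 to 12.43 in replicates 1 to 3 and from 12.63 to 12.76 in the remaining 3, and Acta2 at 13.74 to 13.80 and 13.86 to 13.90, without overlap of the sets for either gene. Acta1 went the other way, at 9.91 to 10.42 and 9.45 to 9.97, with overlap. The sets overlapped for Actb, Actg1 and Actc1. These were compared as a description, with no test. The mean of 10 endothelial markers was 7.76 to 7.90 in replicates 1 to 3 of 4.5 g/l, 7.07 to 7.15 in the remaining 3, and 7.35 in 0.3 g/l replicate 4. In the other 0.3 g/l arrays it was 7.77 to 7.83. The part of these markers in the actin values was not tested. Within replicates 1 to 3, all 6 actin genes passed, with log2 differences of 3.46 for Acta1, 3.28 for Actg2, 0.76 for Actg1, 0.73 for Acta2, 0.52 for Actc1 and 0.43 for Actb (limma adjusted p from 3.58e-05 to 0.0427). Within replicates 4 to 6, Acta1 passed (2.79, limma adjusted p = 0.0283) and the other 5 did not (limma adjusted p from 0.106 to 0.165). Their differences there were 2.96 for Actg2, 0.65 for Actg1, 0.63 for Acta2 and 0.47 for both Actb and Actc1. With 0.3 g/l replicate 4 left out there as well, Actg2 differed by 3.77 and all but Actc1 passed.

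**Figure D3:**
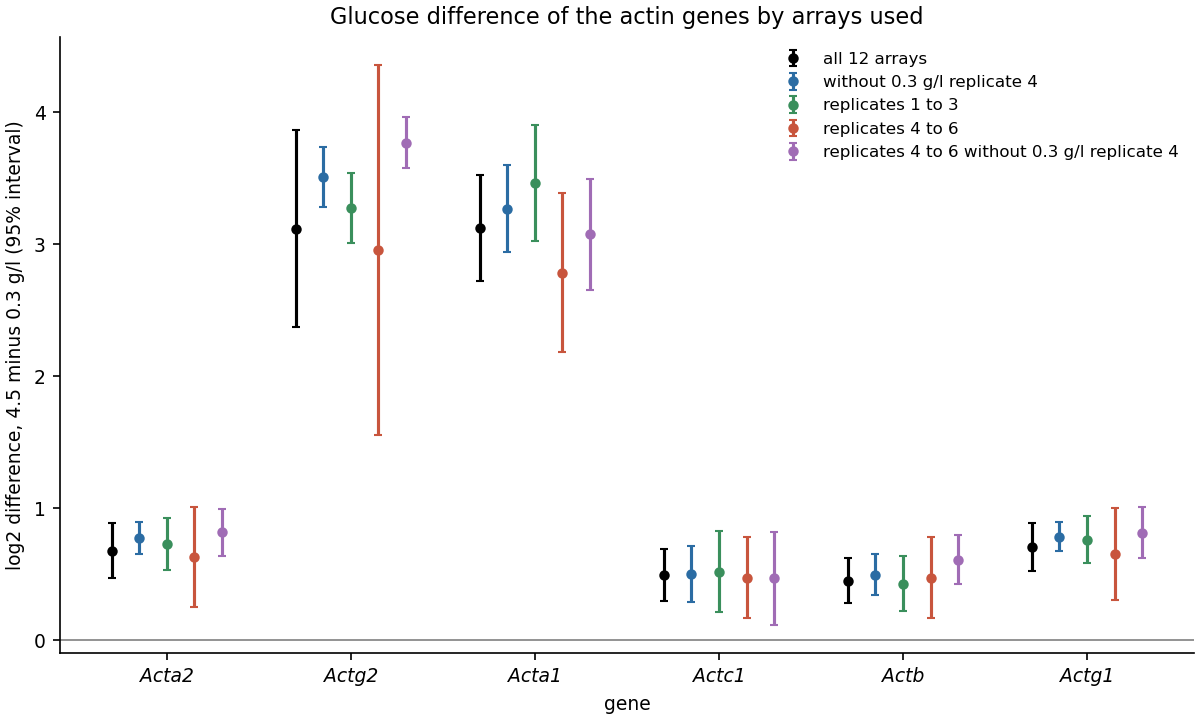
Log2 difference of 4.5 minus 0.3 g/l (y axis, with 95% interval from limma) for the 6 actin genes (x axis), over all 12 arrays, with replicate 4 of 0.3 g/l left out, and within each set of replicates (1 to 3 or 4 to 6). Every difference is above 0, and the widest interval is that of Actg2 within replicates 4 to 6, from 1.55 to 4.36.

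Of SRF and its 3 cofactors measured, 2 rose and none fell, where 15.5% of all genes passed. Their median log2 difference was 0.33. Srf rose 1.63-fold, from 8.34 ± 0.41 to 9.04 ± 0.11 (SD, n = 6; limma adjusted p = 0.00729), and Mrtfb 1.16-fold (limma adjusted p = 0.0476). Mrtfb no longer passed when any array other than 0.3 g/l replicate 4 was left out (limma adjusted p at least 0.0678). Myocd and Mrtfa differed by 0.20 ± 0.09 and 0.44 ± 0.16 (SE) and did not pass with 12 arrays. Without 0.3 g/l replicate 4 all 4 factors passed, where 5295 of all 22180 genes did. Their log2 differences without that array were 0.87 for Srf, 0.58 for Mrtfa, 0.28 for Myocd and 0.27 for Mrtfb. That array held the highest of the 12 values of Srf (9.17) and Myocd (7.37), and its Mrtfa (8.41) and Mrtfb (9.18) lay within the range of the 4.5 g/l arrays. For all 4 factors the groups overlapped. Mrtfa also differed between the sets of 4.5 g/l arrays, at 7.85 to 7.96 in replicates 1 to 3 and 8.33 to 8.42 in the remaining 3. Between glucose groups, Mrtfa differed by 0.27 in replicates 1 to 3 and by 0.60 in the remaining 3, or 0.92 when replicate 4 of 0.3 g/l was left out of those.

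Of 8 measured genes known as repressors of muscle actin genes, 1 fell and 1 rose (median 0.00). That is 25% beside 15.5% of all genes, a count near the background. Klf4, a zinc finger factor induced when smooth muscle cells leave the contractile state, fell from 8.57 to 7.06, a log2 difference of -1.52 ± 0.22 (limma adjusted p = 0.000677). Purb, a single-strand binding repressor of Acta2, rose by 0.26 ± 0.08 (limma adjusted p = 0.0359), and lost its call without any of 8 single arrays (limma adjusted p from 0.0587 to 0.0822). Without 0.3 g/l replicate 4, 3 of the 8 fell and 1 rose, where 3007 of all 22180 genes fell and 2288 rose.

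Of 14 genes listed under actin monomer binding 6 rose and none fell (42.9% beside 15.5% of all genes, median log2 difference 0.16). The list is wider than its name, and Gmfb is not a monomer binder. With 0.3 g/l replicate 4 left out, 7 rose and 1 fell, where 2288 of all 22180 genes rose and 3007 fell. The 1 that fell there was Gmfb (-0.33, limma adjusted p = 0.00223), named after its value was seen. Destrin, Dstn, which takes filaments apart, rose 1.88-fold, Cap2, which recycles monomers, 1.75-fold, the cofilin cofactor Wdr1 1.67-fold and the monomer-sequestering thymosin Tmsb4x 1.39-fold. Of 21 genes of filament nucleation, 9 rose and 1 fell (47.6% beside 15.5% of all genes, median 0.19). Leiomodin, Lmod1, a nucleator of smooth muscle, rose 3.41-fold, the formin Diaph3 1.52-fold, and the Arp2/3 complex members Arpc5 and Actr3 1.41-fold and 1.25-fold. The 1 that fell was Arpc5l, a second form of the ARPC5 subunit, at -0.70 ± 0.16 (log2 ± SE; limma adjusted p = 0.00754), named after its value was seen.

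Of 15 genes of filament capping and severing, 5 rose and 2 fell (median 0.12), or 46.7% beside 15.5% of all genes. Without 0.3 g/l replicate 4 the counts were 4 and 2, where 2288 of all 22180 genes rose and 3007 fell. The membrane-linked actin binder supervillin, Svil, rose 3.30-fold and gelsolin, Gsn, 1.77-fold, whereas the barbed-end capper Eps8 was 1.87-fold lower and advillin, Avil, 1.62-fold lower. Of 7 genes of actin modification, 4 rose and none fell (57.1% beside the same 15.5%, median 0.47). These were Mical1, Mical2 and Mical3, enzymes that oxidise methionines of actin and so disassemble filaments, at 1.38-fold, 1.57-fold and 1.45-fold, and Msrb1, the reductase that reverses this oxidation, at 2.91-fold. Enzymes of both directions were thus among the 4.

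The count of actin folding genes that passed was near the background and depended on 1 array. Of 14 measured genes of the CCT chaperonin, which folds new actin, and of prefoldin, which delivers it, 1 rose and 2 fell, or 21.4% beside 15.5% of all genes, with a median log2 difference of -0.14. Of the 14, 7 fell and 1 rose without 0.3 g/l replicate 4, where 3007 of all 22180 genes fell and 2288 rose. The CCT subunit Cct2 differed by -0.27 ± 0.06 and the prefoldin subunit Pfdn1 by -0.21 ± 0.07 (log2 ± SE), while the chaperonin cofactor Pdcl3 rose by 0.53 ± 0.07. Pfdn1 lost its call without any of 9 single arrays (limma adjusted p from 0.0538 to 0.109).

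None of 13 measured actin-like and actin-related genes passed in limma, where 15.5% of all genes did. None had an unadjusted p under 0.05, and 4 had means below 4.20, the bound of the dimmest 25% of genes. The 13 include Actbl2, a close relative of beta actin, with means of 4.29 and 4.22. They also include Actr1a of the dynactin complex, with means of 10.63 and 10.66. Both were chosen as examples after the values were seen. Of 10 endothelial markers 1 passed, where 15.5% of all genes did. This was Emcn, at -0.43 ± 0.12 (limma adjusted p = 0.0236), and it lost its call without any of 6 single arrays. Of the 10, 3 fell without 0.3 g/l replicate 4, where 3007 of all 22180 genes fell. These were Cdh5 (-0.75), Tek (-0.66) and Emcn (-0.47), named after their values were seen. With the replicate number as a block 3 of the 10 passed, where 3130 of all 22180 genes did. Within replicates 4 to 6 without 0.3 g/l replicate 4, 8 of the 10 passed, where 3435 of all 22180 genes did. Of 8 fibroblast markers Col14a1 rose 1.29-fold and Cd34, which endothelial cells also carry, was 2.02-fold lower. These made 25% of that list, near the share of all genes. The fibroblast count was 3 higher and 1 lower without 0.3 g/l replicate 4, where 2288 of all 22180 genes rose and 3007 fell. Pdgfra (0.44, limma adjusted p = 0.00510) and Tcf21 (0.25, limma adjusted p = 0.0409) passed there as well, also named after their values were seen. Of 8 macrophage and leukocyte markers none passed or had an unadjusted p under 0.05. The part of such cells in the actin values was not tested.

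**Figure D4:**
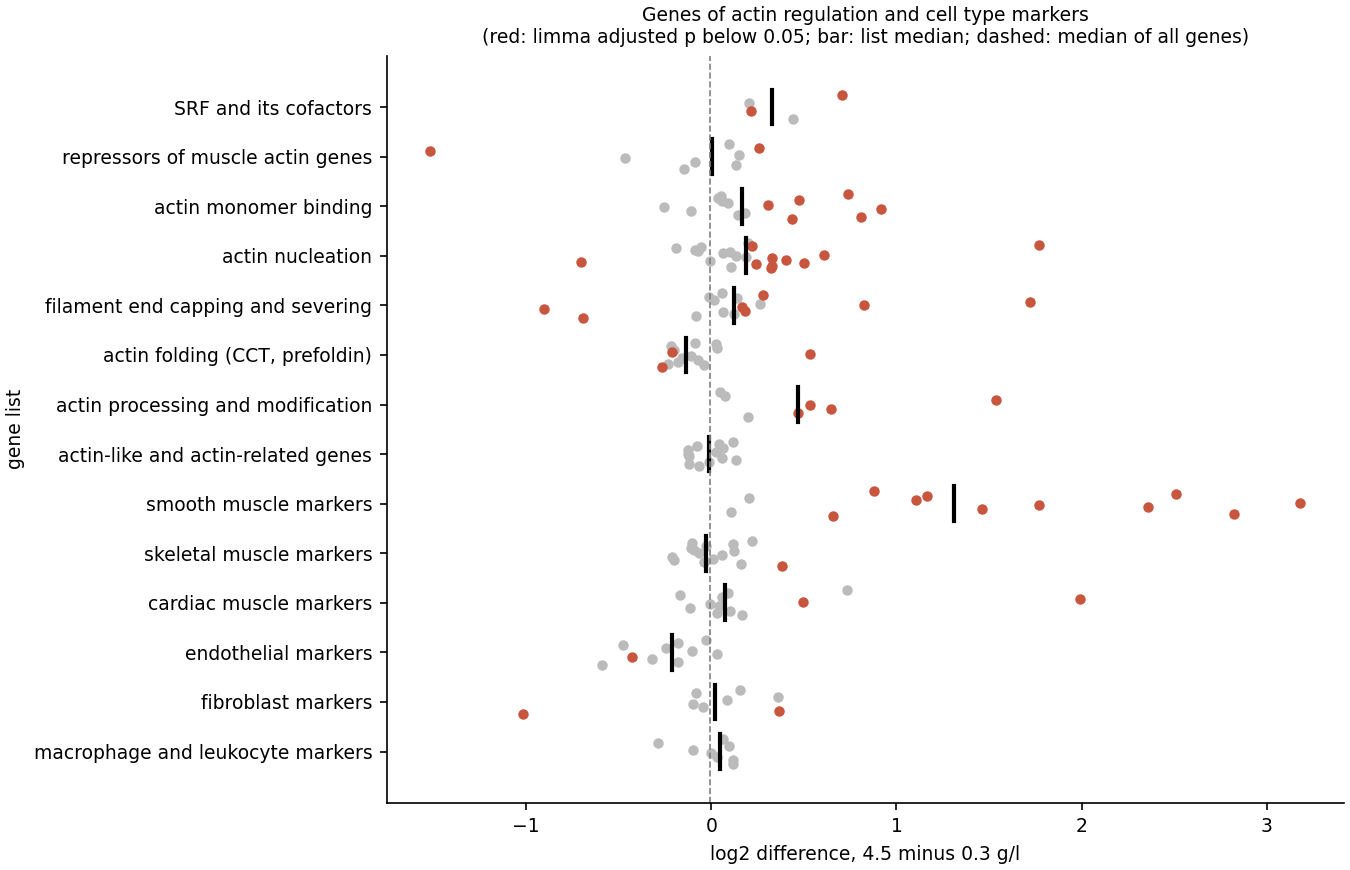
Log2 difference of 4.5 minus 0.3 g/l (x axis) for each gene of 14 lists (y axis), in red where the limma adjusted p was below 0.05, with a black bar at each list's median and a dashed line at the median of all genes (-0.01). Smooth muscle markers have the highest median (1.31), and actin-like and actin-related genes lie around 0.

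Actb is often used to normalize expression measurements, so its rise was set beside 11 genes used in the same way. In limma none of the 11 passed (3 had an unadjusted p under 0.05), where 15.5% of all genes did. The log2 differences of the 11 ran from -0.21 for Tfrc to 0.15 for Polr2a. Gapdh was at 13.20 ± 0.03 and 13.23 ± 0.04 (SD, n = 6), Ywhaz at 12.38 ± 0.07 and 12.34 ± 0.04, and Sdha at 10.02 ± 0.08 and 10.07 ± 0.10. In a comparison chosen after the values were seen, Actb rose more than each of the 11 within the same arrays, by 0.30 ± 0.07 (SE) against Polr2a to 0.66 ± 0.24 against Tfrc (exact permutation test, adjusted p over 11 genes from 0.00397 to 0.0173). Against Gapdh the difference was 0.42 ± 0.08, with no overlap of the groups. Without 0.3 g/l replicate 4, Actb still differed from all 11. There Hprt (-0.24), Tfrc (-0.39) and Polr2a (0.19) passed in limma themselves, where 5295 of all 22180 genes passed.

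**Figure D5:**
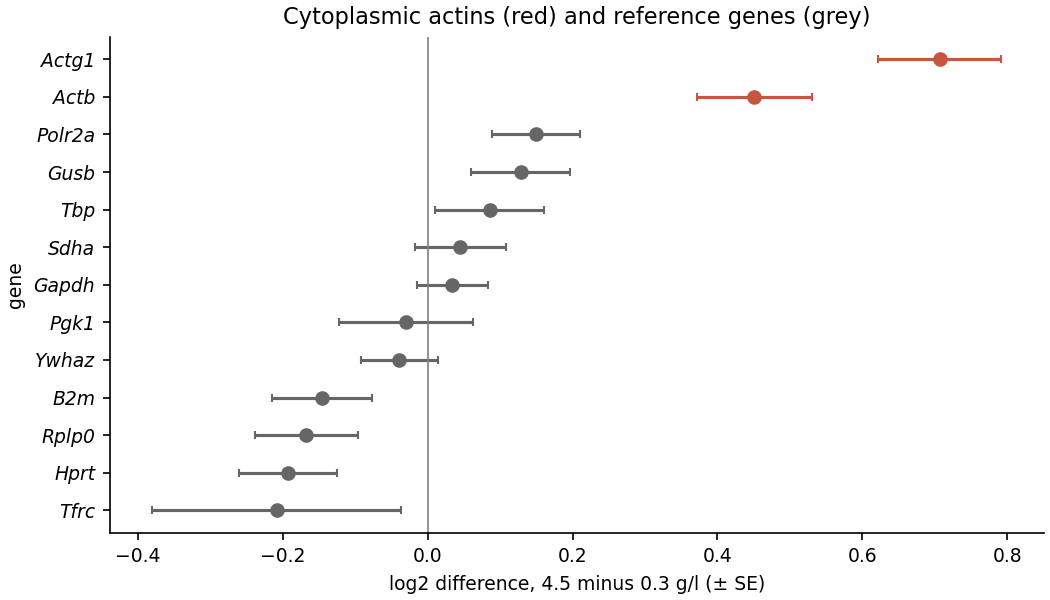
Log2 difference of 4.5 minus 0.3 g/l (x axis, ± SE from limma) of Actb and Actg1 (red) and of 11 genes used for normalization (grey), ordered by size (y axis). Actb (0.45) and Actg1 (0.71) lie above all 11, which run from -0.21 to 0.15.

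The genes whose values followed each actin most closely were found by Pearson's r over the 12 arrays, which share the group difference and replicate 4 of 0.3 g/l. Acta2 was most like Mcam, an adhesion molecule of vessel walls (r = 0.998), the myosin light chain Myl9 (0.997) and the membrane protein gene Xk (0.996). Actg2 was most like Lmod1 (0.998), the adhesion protein vinculin, Vcl (0.998), and smoothelin, Smtn (0.997). Actg1 was most like Ankrd1 (0.990), Vcl (0.989) and the growth factor Tgfb3 (0.987). For Acta1 the nearest were the integrin subunits Itga5 (0.993) and Itga3 (0.989) and Unc13c (0.987), for Actb Rilp (0.963), Fzd7 (0.950) and Epas1 (0.948), and for Actc1 Nme5 (0.943), Septin7 (0.939) and Ipo11 (0.934). When only deviations from the group means were used, Cnn1, smooth muscle calponin, was among the nearest 3 of both Acta2 (0.991) and Actg2 (0.990). In these deviations replicate 4 of 0.3 g/l weighs most. These values describe likeness over 12 arrays and carry no test.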

How the data were processed

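Gene expression of 12 samples was measured on an Affymetrix whole-transcript array. The authors deposited log2 values per probe set, made with Affymetrix Expression Console and RMA per the submitters' processing notes. RMA corrects background, quantile-normalizes arrays and summarises probes, so the values do not show whether total RNA of a cell changed. Versions, detection calls, scan dates and the build were not given in the sources used here.

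Of 41345 probe sets, 23521 had 1 gene symbol in the platform annotation, 1814 had several and 16010 were unnamed here. The 22180 genes were each read from 1 probe set, that of highest mean (ties by the lowest identifier). Groups were compared with limma 3.58.1 (R 4.3.3), two-sided, calling adjusted p-values below 0.05 (Benjamini-Hochberg, all genes together). Single within-array differences were compared with exact permutation tests (scipy 1.17.1). In simulated data with 200 changed genes the fit made 186 calls, of which 177 were changed genes and 9 were false. Each simulated gene was drawn on its own, with no outlying array and no sets of arrays. The effect of those features on the calls was thus not tested there. The actin genes and 15 lists of related genes (172 of 191 entries matched) were chosen with earlier results of these data known. Named were the actin genes and SRF factors, up to 4 changed genes with the smallest p of each other list, all reference genes, and the 3 genes most like each actin. Alternatives were other scalings, filters, weights, blocks, subsets and leaving out each array. Figures were drawn with matplotlib 3.10.9. Protein sequences and probe sequences were not used here.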

Additional observations from a re-analysis of the deposited data

Results flagged for a closer look

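Of 20 groups of 6 arrays examined, for the 6 actin genes and the 4 SRF factors, 8 held an array set apart from the rest of its group by Dixon's ratio. Chance flags about 1 in 20 such groups. In 7 of the 8 the array was replicate 4 of 0.3 g/l, which was the highest of its group for Acta2 (13.62), Actg2 (11.37), Actg1 (11.98), Srf (9.17), Myocd (7.37), Mrtfa (8.41) and Mrtfb (9.18). The eighth was replicate 6 of 4.5 g/l for Mrtfb (9.23). Acta1, Actc1 and Actb had no such array in either group.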

How the results depend on the processing

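The log2 difference of each actin gene was recomputed under each alternative, and none of the 162 values turned its sign. Of them 154 kept their side of the threshold. Within replicates 4 to 6 alone, Acta2 (0.63), Actg2 (2.96), Actc1 (0.47), Actb (0.47) and Actg1 (0.65) no longer passed, and without 0.3 g/l replicate 4 there, Actc1 (0.47) did not pass. Fewer arrays enter these fits, and the part of their number in the lost calls was not tested. Against a fold of 1.2, Actc1 (0.50) and Actb (0.45) did not pass. Leaving out each array in turn gave 3.02 to 3.27 for Acta1, 0.63 to 0.77 for Acta2, 0.41 to 0.50 for Actb, 0.45 to 0.54 for Actc1, 0.68 to 0.79 for Actg1 and 3.00 to 3.51 for Actg2. Over all genes 3444 passed, from 2514 to 5295 when an array was left out (5295 without 0.3 g/l replicate 4). The number was 5419 with array weights and 454 against a fold of 1.2. It was 2900 within replicates 1 to 3, 30 within replicates 4 to 6, and 3435 within replicates 4 to 6 without 0.3 g/l replicate 4. Of the genes in the lists 49 passed, from 39 to 67 when an array was left out, and 21 against a fold of 1.2. Within replicates 4 to 6 the number was 4, and 58 there without 0.3 g/l replicate 4. The number of gene pairs that differed in their rise was 9 to 11 when an array was left out. Of 375 counts over single lists under the alternatives, 83 moved by over 1.5 times. Tests of pairs within 3 arrays a group could not pass and were not run. Same-numbered arrays of the groups deviated with correlations from -0.05 to 0.17, and 1 of the 6 arrays of 0.3 g/l correlated best with its own number. These deviations also carry the shift of 0.3 g/l replicate 4 and the difference between the sets of high-glucose arrays. The check therefore cannot decide whether the numbers pair the samples. With the replicate number as a block all 6 genes passed (0.68 for Acta2, 3.12 for Actg2 and for Acta1, 0.50 for Actc1, 0.45 for Actb, 0.71 for Actg1) and 3130 genes and 46 list genes passed. Arrays give no depth. Signal near the dim end limits Actc1, and signal near the array maximum limits Acta2.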
